A study of Mus musculus with 6 samples.

Results

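The immediate early genes described here are Fos, Fosb, Jun, Junb, Egr1, Egr3, Egr4, Arc, Npas4 and Nr4a1. They are 10 of the 36758 genes in the deposited expression table and were picked by gene symbol, as members of a known gene class. Each symbol had 1 gene ID, and all 10 passed the filter on low values (1 FPKM or more in 3 or more of the 6 libraries), which left 14206 genes for testing. RNA came from brain of C57BL/6J mice aged 6 months, and the labels name microglia as the cell type. The 3 control libraries were from mice on water as vehicle, and the 3 treated libraries were from mice on 0.12% trimethylamine N-oxide (TMAO), given daily, both over 16 weeks. TMAO is a small metabolite that the liver makes from the trimethylamine released by gut bacteria. Levels are FPKM, which divide fragments by transcript length and by the size of the library, so levels of different genes can be set side by side. Whether each library is a different animal is not in the labels, so a p-value here reflects library-to-library spread, which may be technical.

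Immediate early genes are transcribed within minutes of a stimulus, without new protein synthesis, because the factors that switch them on (such as CREB and serum response factor) are already in the cell. In neurons they follow calcium entry through synaptic receptors and channels, and Arc and Npas4 are widely used as marks of recent neuronal activity. Fos, Jun, Junb and Egr1 also respond to growth factors, wounding and cell stress in glia, vessel cells and immune cells, so their RNA in a tissue sample can come from many cell types.

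The libraries held RNA of several brain cell types. The 10 neuron markers summed to 909 to 1068 FPKM in TMAO and to 405, 921 and 978 FPKM in vehicle replicates 1, 2 and 3. The 10 microglia markers summed to 112 to 126 FPKM in TMAO and to 106 to 267 FPKM in vehicle. Vehicle replicate 1 stood apart, with the lowest neuron sum and the highest sums of all 7 other marker lists. Of the 10 neuron markers 8 were lowest in it, such as Slc17a7 at 14.5 FPKM against 151 to 185 FPKM elsewhere. The other 2, Gad1 and Gad2, were highest in it, at 49.1 and 50.2 FPKM. The border macrophage sum was 70.8 FPKM there and 3.03 to 15.7 FPKM elsewhere, and the endothelial sum was 249 FPKM there and 34.1 to 107 FPKM elsewhere. No marker of any list was at 0 in a library. In such mixed tissue RNA, fewer cells of a type and less RNA per cell cannot be told apart.

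The stretches just upstream of the start sites are shown first, for members whose levels are described together here. A set of 6 motifs was searched. RefSeq start windows on GRCm38.p6 were at hand for 7 of the 10 members (Egr4, Fos, Fosb, Jun, Junb, Npas4 and Nr4a1). Each sequence covers the 250 bases before the start, 5′ to 3′ on the gene's strand. Capitals mark TGACG, the core of the site bound by CREB and related factors, or its reverse complement, and in Jun the letters TGACATCA.
Fos, chr12:85473640-85473889, plus strand: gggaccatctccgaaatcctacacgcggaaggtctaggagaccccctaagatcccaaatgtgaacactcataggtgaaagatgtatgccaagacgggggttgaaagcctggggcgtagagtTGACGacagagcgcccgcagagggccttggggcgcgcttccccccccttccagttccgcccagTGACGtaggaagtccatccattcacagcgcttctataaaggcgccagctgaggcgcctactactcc
Npas4, chr19:4989972-4990221, minus strand: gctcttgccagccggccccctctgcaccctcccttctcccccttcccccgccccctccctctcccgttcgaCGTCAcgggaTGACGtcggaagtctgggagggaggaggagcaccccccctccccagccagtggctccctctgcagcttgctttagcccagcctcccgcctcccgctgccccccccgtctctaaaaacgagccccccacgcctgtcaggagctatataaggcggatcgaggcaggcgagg
Nr4a1, chr15:101266596-101266845, plus strand: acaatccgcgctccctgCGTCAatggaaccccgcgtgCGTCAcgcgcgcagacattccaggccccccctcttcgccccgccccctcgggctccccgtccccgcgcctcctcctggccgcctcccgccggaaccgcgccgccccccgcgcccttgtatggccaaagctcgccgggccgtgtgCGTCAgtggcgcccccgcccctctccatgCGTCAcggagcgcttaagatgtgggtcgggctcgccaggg
Jun, chr4:95052223-95052472, minus strand: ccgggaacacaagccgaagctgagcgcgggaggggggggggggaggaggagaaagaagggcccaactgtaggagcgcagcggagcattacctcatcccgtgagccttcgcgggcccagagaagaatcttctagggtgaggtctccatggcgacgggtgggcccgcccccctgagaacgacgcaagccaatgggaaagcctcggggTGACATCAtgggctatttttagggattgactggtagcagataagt
On both strands, TGACG was found in 6 of these 7 windows, with 4 copies in Nr4a1, 2 each in Fos, Npas4 and Egr4, and 1 each in Fosb and Junb. The same letters were in 17.8% of 32851 RefSeq start windows of that length. The 7 windows were 58.4% to 74.4% G or C, and the shares over all windows were not matched for base composition. The Jun window lacked TGACG and held TGACATCA, which is an 8-letter variant of the AP-1 site and was in 2.93% of all windows. The EGR-type letters GCGNGGGCG were in the Fosb and Nr4a1 windows and in 4.70% of all windows. The full CRE (TGACGTCA, which contains TGACG), the AP-1 letters TGANTCA and the CArG box of serum response factor were in 0 of the 7 windows, and in 1.55%, 6.75% and 1.47% of all windows. Bases farther upstream and members without a window were not searched, so an absence holds for these stretches only. A match describes the letters and is not evidence of a bound site.

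None of the 10 genes passed the test of TMAO against vehicle. Values were lower in TMAO for 6 members and higher for 4, with a median log2 difference of -0.69. By limma on log2(FPKM + 1) with Benjamini-Hochberg adjustment over all genes, the smallest adjusted p among the members was 0.404, and the share called among all genes tested was 0%. At an unadjusted p under 0.05 by limma there were 2 members, Jun on the lower side and Egr3 on the higher side, against a background of 7.22% lower and 4.84% higher. That count fell to 1 when vehicle replicate 2 was left out, and to 0 when TMAO replicate 2 or TMAO replicate 3 was. Over all 14206 genes the count fell too, from 1712 to 1296, 740 and 528 in those fits, in that order. Without TMAO replicate 1, 767 of all genes were at that threshold. The count of members was then 2 again, but with Egr3 and Egr4 (unadjusted limma p of 0.0152 and 0.00199) and not Jun. Jun had an unadjusted limma p of 0.0541 without vehicle replicate 2, and of 0.0761, 0.0805 and 0.0967 without TMAO replicates 1, 2 and 3. Its unadjusted limma p was 0.00422 without vehicle replicate 1 and 0.00965 without vehicle replicate 3. In these last fits 2437 and 3365 of all genes were at an unadjusted limma p under 0.05. With all 6 libraries, 53.2% of all genes tested had a lower value in TMAO, and the median log2 difference of all genes was -0.027. The groups did not overlap in 2 of the 10 members, again Jun and Egr3. The groups were apart in 29.5% of all genes, 17.5% with TMAO lower and 12.1% with TMAO higher. Without vehicle replicate 1 the members split 5 lower and 5 higher, with a median of 0.041, where 54.6% of all genes were lower. Without TMAO replicate 1 they split the same way, with a median of 0.031, where 52.5% of all genes were lower. Without vehicle replicate 3 the median was -1.07, with 7 members lower and 52.3% of all genes lower.

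**Figure D1:**
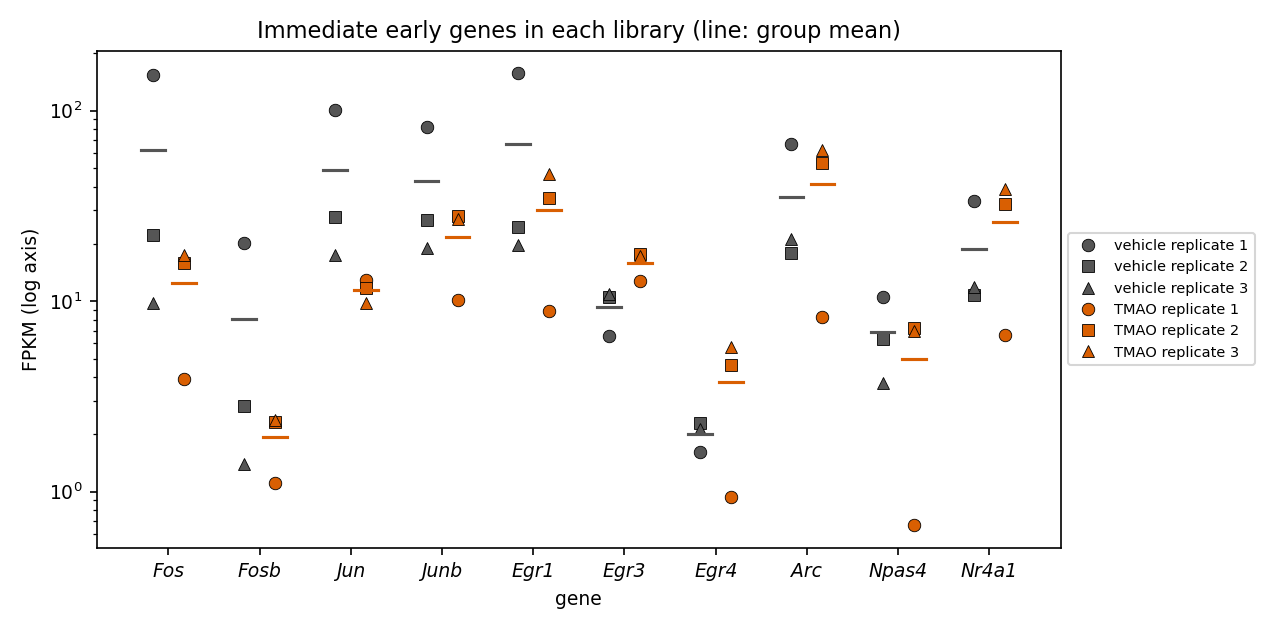
Level of each immediate early gene in FPKM (log axis) in the 3 vehicle libraries (grey) and the 3 TMAO libraries (orange). Symbols give the replicate and short lines the group mean. Vehicle replicate 1 (grey circles) is the highest library for 7 genes, and TMAO replicate 1 (orange circles) is the lowest library for 8 genes.

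The AP-1 subunits come first. Jun (ENSMUSG00000052684, GRCm38 chromosome 4, 95049034 to 95052222, minus strand) encodes the c-Jun subunit, which pairs with FOS proteins and is activated by stress kinases. Jun was at 101, 27.5 and 17.5 FPKM in vehicle replicates 1, 2 and 3 and at 12.9, 11.8 and 9.84 FPKM in TMAO replicates 1, 2 and 3. Each TMAO library thus lay below each vehicle library, and the TMAO libraries lay close together while the vehicle libraries spread over 5.76-fold. The group means were 48.7 ± 45.5 and 11.5 ± 1.53 FPKM (SD, n = 3 each). The log2 difference was -1.60 (SE 0.609, unadjusted p = 0.0381 and adjusted p = 0.404 by limma). It was -0.89 without vehicle replicate 1 and -2.12 without vehicle replicate 3. The antisense gene Junos overlaps Jun on the plus strand, at 0.125 to 0.258 FPKM.

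Fos (ENSMUSG00000021250, chromosome 12, 85473890 to 85477273, plus strand) encodes c-Fos, the partner of JUN proteins that is induced most briefly. Fos was at 155, 22.2 and 9.75 FPKM in vehicle and at 3.91, 15.9 and 17.5 FPKM in TMAO, in the order of the replicates. Vehicle replicate 1 was far above the rest, TMAO replicate 1 was the lowest, and the other 4 libraries were interleaved. TMAO minus vehicle was -1.55 on the log2 scale (SE 1.06, adjusted p = 0.450 by limma) and -0.45 once vehicle replicate 1 was left out. Fosb (ENSMUSG00000003545, chromosome 7, 19302696 to 19310051, minus strand), whose product has a stable short form that accumulates under repeated stimulation, had 20.1, 2.82 and 1.40 FPKM in the vehicle libraries. In TMAO Fosb had 1.11, 2.31 and 2.38 FPKM. Its log2 difference of -1.01 (SE 0.797) shrank to -0.078 without vehicle replicate 1, and the groups overlapped.

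Junb (ENSMUSG00000052837, chromosome 8, 84974484 to 84978718, minus strand) encodes a JUN protein that activates fewer targets than c-Jun and can hold it back. It was at 82.6, 26.6 and 19.0 FPKM in vehicle and at 10.2, 28.1 and 26.9 FPKM in TMAO. TMAO replicates 2 and 3 were thus slightly above vehicle replicates 2 and 3, and TMAO replicate 1 was below all other libraries. TMAO minus vehicle was -0.78 on the log2 scale (SE 0.629, adjusted p = 0.499 by limma) and -0.17 once vehicle replicate 1 was left out. Prdx2 overlaps Junb on the other strand and was at 29.3 to 37.2 FPKM. No source used here says whether reads were assigned by strand, so reads of such pairs cannot be told apart.

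The EGR genes encode zinc finger transcription factors that bind GC-rich sites. Egr3 (ENSMUSG00000033730, chromosome 14, 70077203 to 70082614, plus strand) is a target of EGR1 and of neuronal activity and is needed for muscle spindles and some forms of memory. Egr3 was at 6.56, 10.5 and 10.9 FPKM in vehicle and at 12.7, 17.6 and 17.2 FPKM in TMAO. All TMAO libraries lay above all vehicle libraries, with vehicle replicate 1 lowest, where most other members were at their highest. The means were 9.31 ± 2.40 and 15.8 ± 2.72 FPKM (SD, n = 3 each), with a log2 difference of 0.72 (SE 0.222, unadjusted p = 0.0169 and adjusted p = 0.404 by limma). It was 0.51 without vehicle replicate 1 and ranged up to 0.86 without TMAO replicate 1.

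Egr1 (ENSMUSG00000038418), the most broadly inducible of the family, was at 157, 24.6 and 19.6 FPKM in vehicle and at 8.91, 34.8 and 46.5 FPKM in TMAO. The highest library was a vehicle library and the lowest a TMAO library, but TMAO replicates 2 and 3 exceeded vehicle replicates 2 and 3. The log2 difference was -0.77 (SE 0.944, adjusted p = 0.641 by limma), and it turned to 0.16 without vehicle replicate 1. Egr4 (ENSMUSG00000071341, chromosome 6, 85511121 to 85513589, minus strand), a brain-enriched member, ran at 1.61, 2.30 and 2.14 FPKM in the vehicle libraries and at 0.938, 4.61 and 5.72 FPKM under TMAO. TMAO libraries were thus both the lowest and the highest for Egr4. Its log2 difference was 0.48 (SE 0.470, adjusted p = 0.565 by limma) and became 1.03 once TMAO replicate 1 was left out.

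Arc (ENSMUSG00000022602, chromosome 15, 74669083 to 74672570, minus strand) encodes a synaptic protein that drives removal of AMPA receptors and forms capsid-like particles. Arc was at 67.1, 17.8 and 21.2 FPKM in vehicle and at 8.29, 53.2 and 62.4 FPKM in TMAO. Both groups thus held libraries with high and with low Arc, and the means were 35.4 ± 27.5 and 41.3 ± 28.9 FPKM (SD, n = 3 each). The log2 difference was 0.054 (SE 0.863, adjusted p = 0.972 by limma), with 0.94 without TMAO replicate 1, 0.63 without vehicle replicate 1 and -0.45 without TMAO replicate 3.

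Npas4 (ENSMUSG00000045903, chromosome 19, 4984355 to 4990316, minus strand) encodes a transcription factor that is largely restricted to neurons, is induced by calcium entry and shapes inhibitory synapses. It was at 10.5, 6.32 and 3.74 FPKM in vehicle and at 0.666, 7.27 and 7.02 FPKM in TMAO. TMAO replicate 1 was far below every other library, and the other 5 overlapped. Its log2 difference was -0.62 (SE 0.690, adjusted p = 0.610 by limma) and became 0.15 once TMAO replicate 1 was left out. Nr4a1 (ENSMUSG00000023034, chromosome 15, 101254269 to 101274795, plus strand) encodes the orphan nuclear receptor NUR77. It was at 33.6, 10.8 and 11.9 FPKM in vehicle and at 6.66, 32.5 and 38.8 FPKM in TMAO, the same order of libraries as Arc except that TMAO replicate 3 exceeded vehicle replicate 1. Its log2 difference was 0.32 (SE 0.734, adjusted p = 0.808 by limma), 1.07 without TMAO replicate 1 and -0.12 without TMAO replicate 3.

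**Figure D2:**
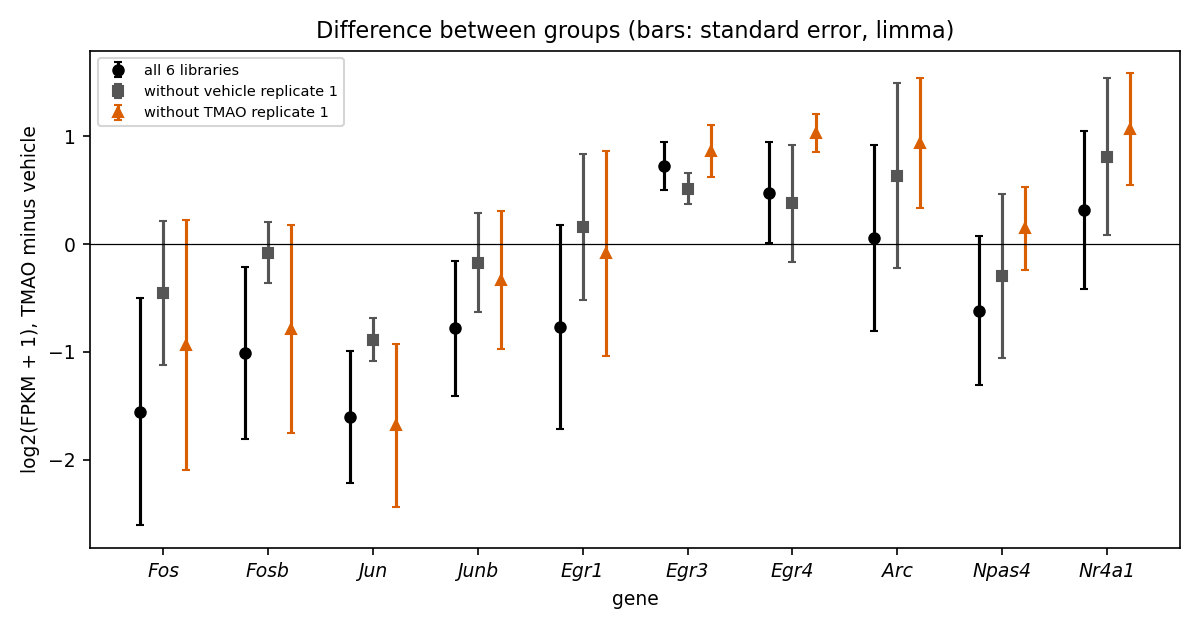
Difference of TMAO minus vehicle on the log2(FPKM + 1) scale for each immediate early gene, with the standard error from limma, for all 6 libraries (black), without vehicle replicate 1 (grey) and without TMAO replicate 1 (orange). Jun, Fos, Fosb and Junb stay below 0 in the 3 fits, and Egr3, Egr4, Arc and Nr4a1 stay above 0. Egr1 and Npas4 change sign. Arc, Nr4a1 and Npas4 lie at 0.94, 1.07 and 0.15 without TMAO replicate 1.

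Over the 6 libraries, the exact two-sided permutation test of log2(FPKM + 1) gave p = 0.1 for Jun and for Egr3, the smallest that 3 against 3 libraries allow, and 0.5 after adjustment over the 10 genes. For the other 8 members, whose groups overlapped, the exact permutation p ran from 0.4 to 1.0. The order of the mean levels differed between groups. In vehicle it ran Egr1, Fos, Jun, Junb, Arc, Nr4a1, Egr3, Fosb, Npas4 and Egr4. In TMAO it ran Arc, Egr1, Nr4a1, Junb, Egr3, Fos, Jun, Npas4, Egr4 and Fosb. In each group 8 of the 9 pairs of neighbours differed by less than the larger of their SDs. The exceptions were Npas4 and Egr4 in vehicle and Jun and Npas4 in TMAO.

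Most of these genes varied widely within a group. Within vehicle, the log2 range over the 3 libraries had a median of 1.96 for the 10 members and 0.49 for all genes tested. Within TMAO the medians were 1.85 and 0.20, although the TMAO libraries were otherwise close to each other. Arc had a range of 2.77 within TMAO, and 0.0985% of all genes had a wider one. For Nr4a1, Npas4, Egr1, Fos and Egr4 the share of genes with a wider range within TMAO was between 0.148% and 0.310%. Jun and Egr3 had ranges of 0.35 and 0.44 within TMAO, which 19.97% and 12.6% of genes exceeded. Egr3 and Egr4 were also the narrowest members within vehicle, where 35.8% and 66.1% of genes had a wider range.

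Most of the range within TMAO lay between replicate 1 and the others. TMAO replicate 1 was the lowest of the 6 libraries for 8 of the 10 members, where 21.1% of all genes had it lowest, and the lowest of the 3 TMAO libraries for 9 of the 10, where that held for 42.8% of all genes. The mean of TMAO replicates 2 and 3 was 10.7 times the level of TMAO replicate 1 for Npas4, 6.97 times for Arc, 5.51 times for Egr4, 5.35 times for Nr4a1, 4.56 times for Egr1 and 4.27 times for Fos. For Junb and Fosb it was 2.70 and 2.12 times, for Egr3 1.37 times and for Jun 0.841 times. Npas4 and Arc were thus lowest relative to the other TMAO libraries in that library. Against the mean of TMAO replicates 2 and 3, Egr3 was at -0.43 and Jun at 0.24 on the log2(FPKM + 1) scale. Of all genes, 3.39% were as low as Egr3 or lower by that measure, and 90.8% as low as Jun or lower. For the other members that share ran from 0.0211% (Arc) to 1.29% (Fosb) in TMAO replicate 1. Neuron markers were not low in this library: their sum of 1068 FPKM was the highest of the 6, and the synaptic gene Snap25 was at 281 FPKM, against 61.0 to 276 FPKM elsewhere. The 12 inducible heat shock genes were all lowest in TMAO replicate 1 as well, with a median of -0.60 on the log2 scale against the mean of TMAO replicates 2 and 3. Their part in the low immediate early levels was not tested.

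Vehicle replicate 1 deviated the other way. It was the highest library for 7 of the 10 members, where 41.8% of all genes had it highest. It held 9.69 times the mean of vehicle replicates 2 and 3 for Fos, 9.54 times for Fosb, 7.12 times for Egr1 and 4.48 times for Jun. The ratio was 3.62 for Junb, 3.44 for Arc, 2.95 for Nr4a1 and 2.09 for Npas4, and Egr4 and Egr3 were at 0.726 and 0.613 of that mean. Arc and Npas4 were thus at their highest in the library whose neuron markers summed to less than in any other library. Of those markers Gad1 and Gad2 were highest in it too. The same library held the highest sums of border macrophage, endothelial, fibroblast and mural, and neutrophil markers, and the part of these cells in the result was not tested. All 12 inducible heat shock genes were highest in vehicle replicate 1 as well. So were 20 of the 22 tested genes in the list of broad early response genes given below.

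**Figure D3:**
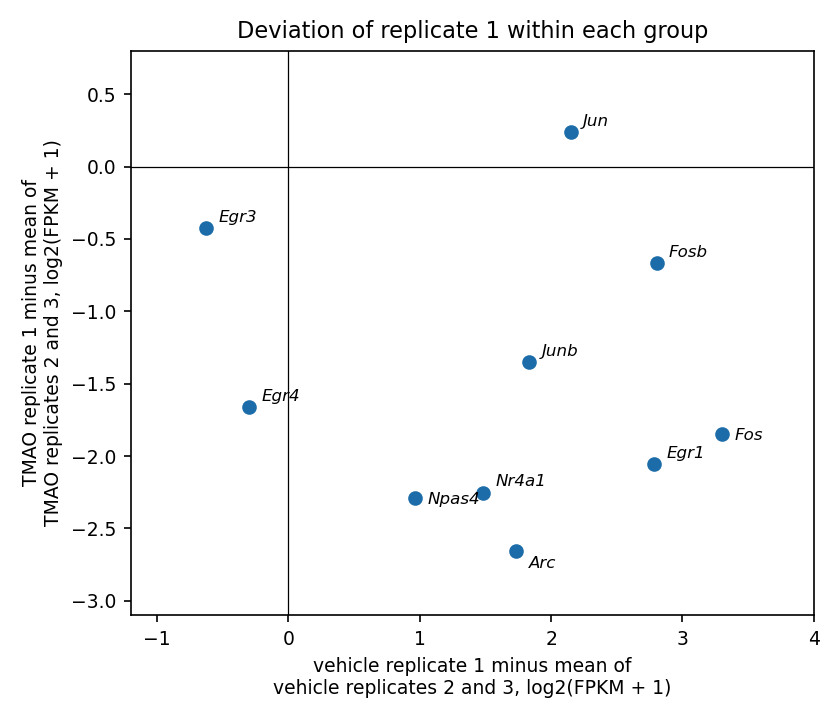
Deviation of replicate 1 from the mean of the other 2 libraries of its group, on the log2(FPKM + 1) scale, for vehicle (horizontal axis) and TMAO (vertical axis), with 1 point per immediate early gene. Arc, Npas4 and Nr4a1 lie lowest on the TMAO axis, at -2.66, -2.29 and -2.25, Fos lies farthest on the vehicle axis, at 3.30, and Jun alone lies above 0 on the TMAO axis, at 0.24.

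Related genes were read from fixed lists, and no gene of any list passed the limma test over all genes. As a background for the counts of lower values in these lists, 53.2% of all genes tested were lower in TMAO. Of the 9 AP-1 relatives 6 passed the filter, and 5 of these 6 had lower values in TMAO (median -0.89, and -0.44 without vehicle replicate 1). Jund, a constitutive JUN protein, averaged 54.6 ± 24.8 FPKM under vehicle and 30.4 ± 2.997 FPKM under TMAO (SD, n = 3 each; log2 difference -0.74, adjusted p = 0.404 by limma). Jdp2, a repressor of AP-1, was on the other side, at 12.6 ± 1.91 and 18.1 ± 1.81 FPKM (log2 difference 0.50), with groups that did not overlap. The groups were apart in 2 of the 6 AP-1 relatives with TMAO lower and in 1 with TMAO higher, where 17.5% and 12.1% of all genes were. Atf3, a stress-induced partner of JUN proteins, was at 161, 13.7 and 4.17 FPKM in vehicle and at 2.37, 4.86 and 1.04 FPKM in TMAO, and was singled out after its values were seen. It thus followed the order of Jun among the vehicle libraries. TMAO replicate 1 was the lowest library for 1 of the 6 AP-1 relatives, where 21.1% of all genes had it lowest.

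The EGR and NR4A relatives with the NAB corepressors split 3 lower and 2 higher (median -0.047, and 0.29 without vehicle replicate 1). Of these 5, 4 were lowest in TMAO replicate 1, where 21.1% of all genes were. Nr4a2, a nuclear receptor of dopamine neurons and an activity-induced gene, was at 1.99, 1.77 and 1.05 FPKM in vehicle and at 0.987, 2.26 and 11.9 FPKM in TMAO, so that TMAO replicate 3 alone was high. Nab1, which binds EGR proteins and represses their targets, was at 7.56 ± 3.68 and 4.60 ± 0.611 FPKM. Its log2 difference was -0.54 with all libraries and -0.21 once vehicle replicate 1 was left out.

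Of the 22 tested genes in the list of broad early response genes, 21 had lower values in TMAO (median -0.92, and -0.42 without vehicle replicate 1). In 11 of them the groups did not overlap, all with TMAO lower, where 17.5% of all genes had groups apart on that side. At an unadjusted p under 0.05 by limma there were 5 of the 22, all lower, where 7.22% of all genes were. TMAO replicate 1 was the lowest library for 13 of the 22, where 21.1% of all genes had it lowest. Ccn1, a secreted matrix protein induced by serum and stretch, was at 59.7, 19.7 and 12.3 FPKM in vehicle and at 3.20, 6.96 and 7.23 FPKM in TMAO. Each TMAO library was below each vehicle library (log2 difference -1.97, SE 0.590, adjusted p = 0.404 by limma), and the difference was -1.35 once vehicle replicate 1 was left out. Plk2, an activity-induced kinase of synapses, was the single gene on the higher side, at 36.3 ± 10.1 and 38.9 ± 5.33 FPKM. Its log2 difference of 0.13 turned to -0.12 once vehicle replicate 1 was left out.

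The later neuronal effectors of activity split 9 lower and 6 higher (median -0.18, and 0.0020 without vehicle replicate 1). Their groups were apart in 2 of the 15 with TMAO lower and in 1 with TMAO higher, where 17.5% and 12.1% of all genes were. Nptx2, a secreted pentraxin that clusters AMPA receptors, was at 17.6, 27.0 and 34.6 FPKM in vehicle and at 6.81, 12.04 and 9.88 FPKM in TMAO, with no overlap. Its log2 difference was -1.36 (SE 0.295, unadjusted p = 0.00349 and adjusted p = 0.404 by limma), and it was -1.61 without vehicle replicate 1. Nrn1, a surface protein of growing neurites, lay on the other side without overlap, at 25.6 ± 12.5 and 53.2 ± 9.92 FPKM. Its log2 difference was 1.15, and 0.67 once vehicle replicate 1 was left out. In TMAO replicate 1 the lowest of the 6 levels was found for 8 of the 15 effectors, against 21.1% of all genes.

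Of the 16 upstream kinases and transcription factors, 10 had higher values in TMAO (median 0.13), where 6646 of all 14206 genes did. In vehicle replicate 1, 10 of the 16 were lowest, where 5099 of all 14206 genes were. In TMAO replicate 1, 2 of the 16 were lowest, where 21.1% of all genes were. The groups were apart with TMAO higher for 6 of the 16, where 12.1% of all genes were, and with TMAO lower for 2, where 17.5% were. Without vehicle replicate 1 the median was 0.012, with 7 of the 16 lower, where 54.6% of all genes were. Camk4, a neuronal calcium-dependent kinase that phosphorylates CREB, averaged 3.07 ± 1.74 FPKM under vehicle and 7.55 ± 1.84 FPKM under TMAO, with groups apart. Its log2 difference of 1.16 became 0.74 once vehicle replicate 1 was left out. Mef2a, a factor at activity-dependent enhancers, was at 11.8 ± 0.944 and 10.3 ± 0.357 FPKM (log2 difference -0.18). The inducible heat shock genes were lower in TMAO for all 12 (median -1.005, and -0.72 without vehicle replicate 1), where 53.2% of all genes were lower. Their groups did not overlap for 10 of the 12, where 17.5% of all genes had groups apart with TMAO lower. Hsph1, a co-chaperone of HSP70, was at 86.9 ± 21.4 and 35.2 ± 10.6 FPKM (log2 difference -1.30, adjusted p = 0.404 by limma).

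**Figure D4:**
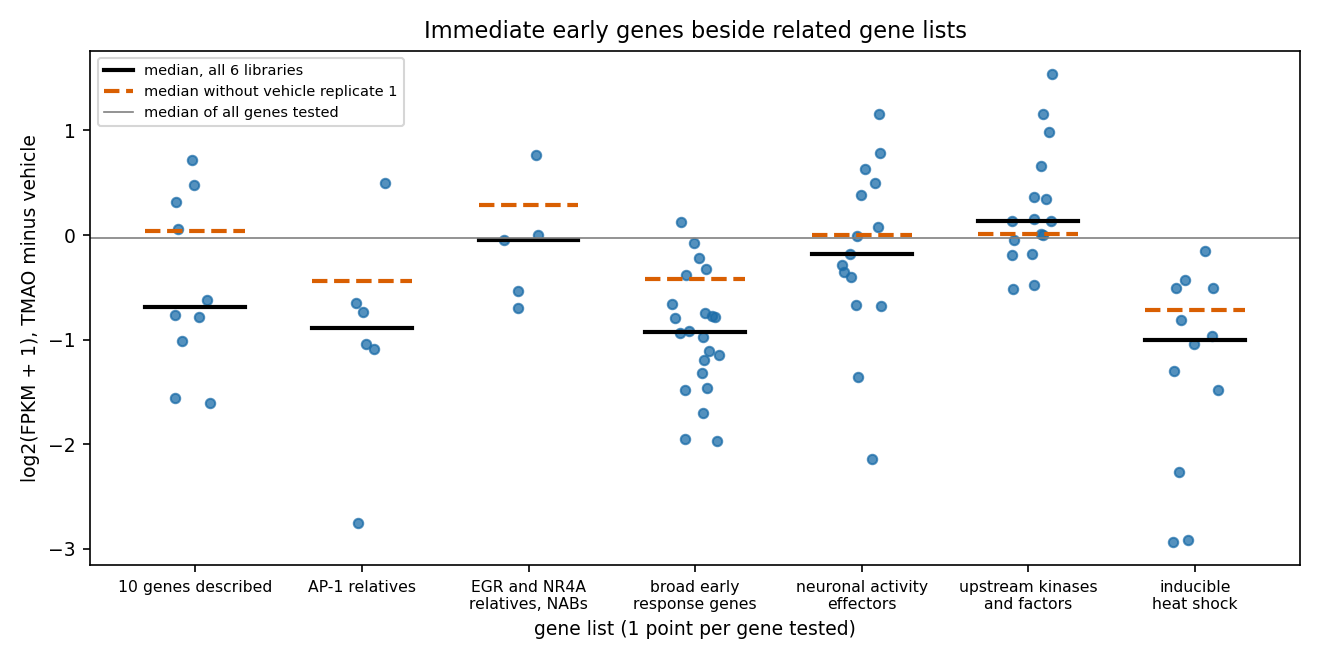
Difference of TMAO minus vehicle on the log2(FPKM + 1) scale for the 10 immediate early genes and for 6 related gene lists, with 1 point per gene tested. Black lines are medians with all 6 libraries, dashed orange lines medians without vehicle replicate 1, and the grey line is the median of all genes tested, at -0.027. The median of the 10 genes moves from -0.69 to 0.041, and that of the heat shock list from -1.005 to -0.72.

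Among the genes whose levels over the 6 libraries were most like those of Jun were Tnfaip1 and Rela, with Pearson correlations of 0.999 and 0.998. For Egr3 they were Pigk, Stx5a and Osbpl3, with 0.996, 0.995 and 0.995. These are descriptions over 6 points that share their libraries, and 1547 genes, or 10.9% of those tested, had a correlation above 0.95 with Jun, against 277 genes with Egr3. Rela, a subunit of NF-kB, was at 26.2, 12.2 and 9.71 FPKM in vehicle and at 8.35, 7.81 and 7.505 FPKM in TMAO, with vehicle replicate 1 far above the rest, as for Jun. Osbpl3 was at 1.79, 3.41 and 3.70 FPKM in vehicle and at 3.90, 6.45 and 6.22 FPKM in TMAO.

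In the authors' deposited table, for which no source used here names the test, Jun was lower, with a log2 fold at -2.08 and a q-value of 0.0438, and 1.15% of the 34778 genes with a value above 0 had a q under 0.05. In the authors' deposited table Fosb was marked as changed too, at a log2 fold of -2.07, a p of 0.0120 and a q-value of 0.243. The 1.15% counts genes with a q under 0.05, so it is not a background for that mark. The share of all genes so marked was not counted here. The authors' deposited table gave Egr3 a log2 fold of 0.77, a p of 0.00611 and a q of 0.171 and marked it as not changed. The other 7 members had a q of 0.472 to 0.946 in the authors' deposited table. These folds are ratios of group means and are larger than the differences on the log2(FPKM + 1) scale where 1 library is high, as for Fos (-2.32) in the authors' deposited table.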

How the data were processed

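RNA sequencing of 6 mouse brain libraries, 3 per group, was read from 1 of 2 deposited tables that hold the same values. The authors deposited FPKM per gene, with their own ratio (fold) of group means, its log2, and a p-value and q-value, per the file headers. Trimming used cutadapt 1.9, and the build named is mm9, per the submitters' processing notes; the aligner, the quantifier and the authors' test were not given in the sources used here. Library columns were assigned to samples by the sample descriptions. All 10 member gene IDs were in GENCODE M21, so gene coordinates are those of GRCm38, found by ID.

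Counts were not used here, and only 15.5% to 18.2% of low FPKM values lay within 2% of a whole number of reads, so depth is unknown and precision rests on the spread between libraries. FPKM were tested as log2(FPKM + 1), a scale that understates changes of low genes, for 14206 genes (1 FPKM or more in 3 or more libraries). The test was limma 3.58.1 in R 4.3.3 (trend and robust estimation, two-sided, Benjamini-Hochberg, threshold 0.05), and it was tested on simulated data. Single members were also compared by exact permutation tests (scipy 1.17.1). Alternatives covered normalization, the pseudocount, the filter, the variance model, a replicate block and leaving out each library.

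The members and gene lists were chosen with earlier results of these data known. Named genes were the 10 members, the gene with the smallest p in each direction of each other list, and the 3 genes most correlated with Jun and with Egr3; Atf3 and Snap25 were shown as levels. A gene that this rule names is not reported here.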

Additional observations from a re-analysis of the deposited data

How the results depend on the processing

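Quantile normalization, median scaling, a pseudocount of 0.1, a looser filter of 0.1 FPKM or none, and fits without the variance trend or robust estimation left the direction of all 10 members as reported, and 0 genes passed the adjusted limma threshold under any of the 14 alternatives. Genes at an unadjusted p under 0.05 numbered 1712, and 528 to 3365 when 1 library was left out. Leaving out 1 library moved the median of the members from -1.07 (without vehicle replicate 3) to 0.041 (without vehicle replicate 1), and it was above 0 without TMAO replicate 1 as well, while 5 to 8 members were lower. Over these 6 fits Arc ran from -0.45 to 0.94, Egr1 from -1.31 to 0.16, Npas4 from -1.01 to 0.15 and Nr4a1 from -0.12 to 1.07, so their directions rest on single libraries. Arc turned below 0 without vehicle replicate 2 or 3 or TMAO replicate 2 or 3. Jun ran from -2.12 to -0.89 and Egr3 from 0.51 to 0.86, with adjusted p by limma of 0.175 to 0.663 and 0.186 to 0.663 over all alternatives. Whether replicate numbers pair the libraries is not in the labels. The deviations of same-numbered libraries from their group means correlated at -0.216, -0.0636 and -0.0153 for replicates 1, 2 and 3. These correlations cannot settle it, as each group mean rests on 3 libraries. With the replicate block 0 genes passed, 1259 were at an unadjusted p under 0.05 by limma, and the median of the members was -0.69.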
